A study of Homo sapiens with 12 samples.

Results

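The enzymes of the kynurenine pathway were followed at the RNA level in DU145, an established human prostate cancer line, with and without RAC1, a GTPase best known for its role in actin protrusions. The 8 enzymes were taken by symbol (IDO1, TDO2, AFMID, KMO, KYNU, HAAO, QPRT and AADAT), and all 8 were found among 56832 genes. They were selected on the TPM difference between genotypes, already known from these libraries, and KYNU also on its spread among the RAC1-positive lines. Both patterns are therefore given below as descriptions, and no test of them is used to support a statement on the enzymes.

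The 12 libraries came from 6 lines, 2 biological replicates each, all grown in RPMI medium with 10% serum. The 3 RAC1-positive lines were the parental DU145 line and sgNTC clones 1 and 2, made with a non-targeting guide RNA. The 3 RAC1 knockout lines were sgRAC1 clone 1, made with the guide sgRAC1_1, and sgRAC1 clones 2 and 3, made with the guide sgRAC1_2. Edited lines were grown from single cells after delivery of Cas9 with its guide, so each is 1 clone, and the shared protocol text makes no separate statement for the parental line. Replicate 1 of every line was batch 1 and replicate 2 was batch 2.

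The kynurenine pathway is the main route of tryptophan breakdown. IDO1 or TDO2 opens the indole ring, AFMID releases kynurenine, and kynurenine then goes one of several ways. KMO hydroxylates it, KYNU (kynureninase) cleaves kynurenine and hydroxykynurenine to anthranilic acids, and HAAO and QPRT carry the product through quinolinic acid towards NAD. AADAT instead transaminates kynurenine to kynurenic acid. In many tumours IDO1 is known as an interferon-induced enzyme of immune suppression, and kynurenine and its relatives are known ligands of the aryl hydrocarbon receptor, AHR.

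Values are TPM, a transcript abundance that corrects for transcript length and sums to 1000000 in each library, so the depth is unknown. RAC1 itself was at 149 to 202 TPM in the RAC1-positive libraries and at 36.5 to 59.2 TPM in the knockout libraries. The labels do not say which part of the gene the guides cut. Markers of DU145 epithelium were present in every library (summed TPM of 5 genes 273 to 802 in RAC1-positive and 372 to 752 in knockout libraries, mostly keratins). Of these, CDH1, the epithelial cadherin, was at 1.99 to 6.25 TPM against 7.04 to 21.0 TPM. EPCAM was at 21.3 to 30.8 TPM against 27.0 to 51.2 TPM. KRT18 was at 62.0 to 434 TPM against 56.4 to 268 TPM, with a lower mean in knockout lines (129 against 236 TPM). KRT8 was at 144 to 239 TPM against 174 to 308 TPM and KRT19 at 39.4 to 102 TPM against 80.9 to 115 TPM. For these keratins the lines of the genotypes overlapped. KLK3 and TMPRSS2, markers of luminal prostate cells, were listed at 0 throughout. The library of sgNTC clone 2 replicate 1 stood apart, with 13608 genes above 0 against 20470 to 25156 in the others and a median correlation with the other libraries of 0.872 against 0.936 to 0.954.

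KYNU lies on chromosome 2, plus strand (chr2:142877498-143055832, GRCh38, GENCODE 29), and AFMID on chromosome 17, plus strand (chr17:78187317-78207701). As KYNU differed most between lines, 2 short stretches before its RefSeq start (GRCh38.p14) are shown. The capitals mark the motif searched for, TATAAA (the TATA box core) or TTCNNNGAA (the core bound by STAT factors).

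KYNU, TATA box core, chr2:142877586-142877615: aagtaaaatattTATAAAttctccactggg

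KYNU, STAT core, chr2:142877620-142877649: gtctgagcagTTCTTTGAAtttctcaccct

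The TATAAA match shown began 66 bases before the start of KYNU, and the STAT core 34 bases before it. TATAAA had 2 further matches in the KYNU window, both on the minus strand, at 68 bases (overlapping the one shown) and at 250 bases before the start. These stretches lie just inside the GENCODE gene bounds, which open further upstream than the RefSeq start. Over the 250 bases before the start, KYNU had 42.4% GC and 1 CpG, where the median of 35116 windows of the same length was 58% and 11. On either strand TATAAA occurred in 10.7% of those windows and TTCNNNGAA in 6.57%. TGANTCA, the AP-1 core, occurred in 6.57% of windows and GCGTG, the core bound by AHR, in 32.2%, and neither was found in the KYNU window. A match describes the letters of the sequence and is not evidence that a factor binds there.

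For the first step of the pathway no transcript was detected. IDO1 (chromosome 8) and TDO2 (chromosome 4), the dioxygenases that commit tryptophan to the pathway, were both listed at 0 in all 12 libraries. IDO2, a relative of IDO1, was likewise at 0 in all of them. GENCODE places AC007991.3 on the opposite strand over 24670 bases of IDO1 and AC007991.2 on the same strand over 1493 bases, and ASIC5, also at 0 in every library, on the opposite strand over 11536 bases of TDO2. How reads in such overlaps were counted is not stated. The depth of each library is unknown, and no upper limit was set on these values.

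AFMID, the formamidase of the next step, was the most abundant of the 8 enzymes in the RAC1-positive lines and stayed in a narrow band. It was at 29.7 and 29.03 TPM in the parental line, at 28.3 and 23.4 TPM in sgNTC clone 1 and at 39.2 and 28.5 TPM in sgNTC clone 2 (replicates 1 and 2). In the knockouts it was at 20.7 and 25.4 TPM in sgRAC1 clone 1, at 27.2 and 23.7 TPM in clone 2 and at 27.9 and 21.9 TPM in clone 3. The libraries of the genotypes overlapped, and the means of the lines barely parted, with the lowest RAC1-positive line at 25.8 TPM and the highest knockout line at 25.4 TPM. The mean over lines was 29.7 ± 4.01 TPM (SD, n = 3 lines) in RAC1-positive and 24.5 ± 1.23 TPM (SD, n = 3 lines) in knockout lines, a difference of -0.26 (SE 0.13) on the log2(TPM + 1) scale.

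KYNU, the kynureninase, showed the widest differences of the pathway. The parental line had 11.8 and 10.2 TPM, sgNTC clone 1 had 2.50 and 1.74 TPM, and sgNTC clone 2 had 0.872 and 0.919 TPM. Among the knockouts, sgRAC1 clone 1 had 29.1 and 33.5 TPM, clone 2 had 21.7 and 19.6 TPM, and clone 3 had 25.1 and 27.1 TPM. Every knockout library was above every RAC1-positive library, and the non-targeting clones were below the parental line in both replicates. In bulk RNA, more cells with the transcript and more of it per cell cannot be told apart.

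**Figure D1:**
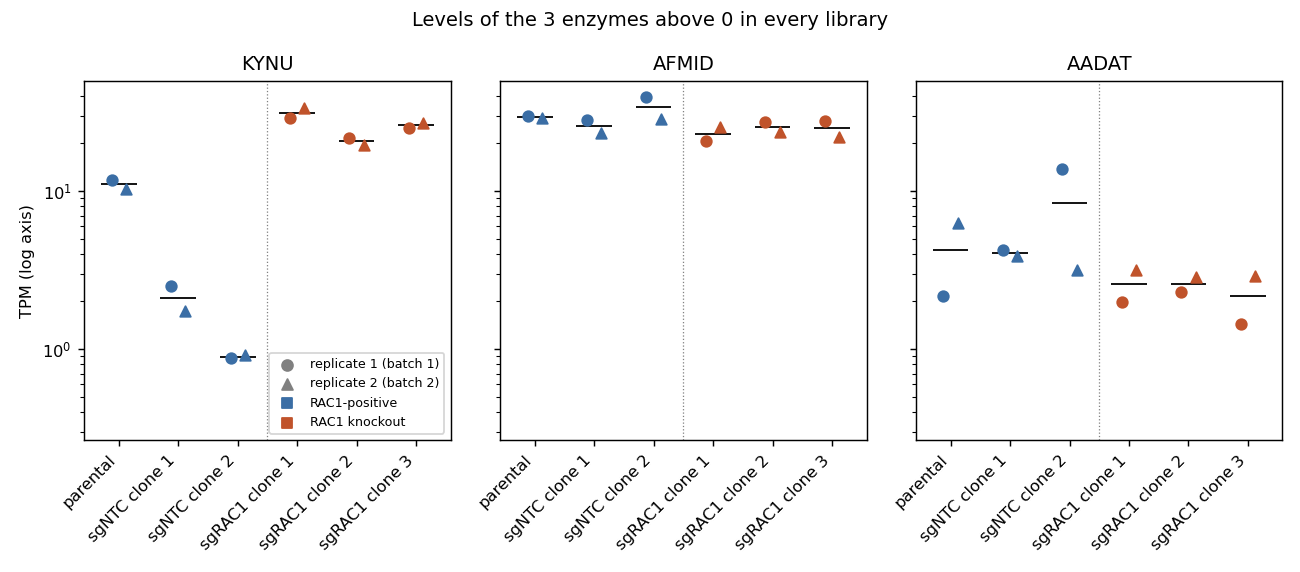
TPM on a log axis of KYNU, AFMID and AADAT in each library of the 6 lines; circles are replicate 1, triangles replicate 2, colours the genotype, and short bars the mean of a line. KYNU runs from 0.872 to 33.5 TPM with all 6 knockout libraries on top, while AFMID stays between 20.7 and 39.2 TPM.

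From low to high, the lines stood in the order sgNTC clone 2 (mean 0.895 TPM), sgNTC clone 1 (2.12 TPM), parental (11.0 TPM), sgRAC1 clone 2 (20.7 TPM), clone 3 (26.1 TPM) and clone 1 (31.3 TPM). The replicate values of neighbouring lines in this order did not overlap in any pair, with 2 libraries a line. The knockout mean was 5.56-fold the RAC1-positive mean, 2.36-fold the parental mean and 17.3-fold the mean of the non-targeting clones. The fold of KYNU thus differed with the RAC1-positive line taken as reference, and the parental line itself stood 5.20-fold above sgNTC clone 1 and 12.3-fold above sgNTC clone 2. The clone made with the guide sgRAC1_1 was 1.51-fold above sgRAC1 clone 2 and 1.20-fold above sgRAC1 clone 3, both made with the other guide.

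On the log2(TPM + 1) scale the knockout lines exceeded the RAC1-positive lines by 2.69 (SE 0.62, n = 3 lines each), from means of 4.68 ± 5.52 TPM (SD) and 26.0 ± 5.31 TPM (SD). Without the parental line the difference was 3.46, without sgNTC clone 1 it was 2.48 and without sgNTC clone 2 it was 2.13. It was 2.58 within batch 1 and 2.80 within batch 2. The spread of KYNU over the 6 lines, 4.09 log2 units, ranked 28 of 17367 genes (those averaging 1 TPM or more in at least 1 genotype), and its spread over the RAC1-positive lines, 2.66, ranked 187. Over the knockout clones its spread was 0.57 and ranked 5070, against a median of 0.36 for all genes. These values are part of what selected the gene.

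KMO, which hydroxylates kynurenine upstream of KYNU, was barely detected, at 0 to 0.439 TPM in the RAC1-positive libraries and at 0.0719 to 0.289 TPM in the knockout libraries. It shares 5541 bases with OPN3 on the opposite strand (0.702 to 5.12 TPM), and no source used here gives the strand setting of the counting. HAAO, the dioxygenase that makes the precursor of quinolinic acid, was above 0 in 1 library, parental replicate 2, at 0.237 TPM. QPRT, which turns quinolinic acid towards NAD, was above 0 in 2 libraries, at 0.157 TPM in sgRAC1 clone 2 replicate 1 and at 0.842 TPM in clone 3 replicate 1. QPRT overlaps AC009086.2 on the same strand, so its reads could be shared. None of these 3 enzymes reached a mean of 1 TPM in either genotype.

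AADAT, the aminotransferase of the kynurenic acid branch, was present at a low level with a wide spread. It was at 2.15 and 6.28 TPM in the parental line, at 4.24 and 3.90 TPM in sgNTC clone 1 and at 13.7 and 3.15 TPM in sgNTC clone 2. The knockouts had 1.99 and 3.15 TPM in sgRAC1 clone 1, 2.30 and 2.85 TPM in clone 2 and 1.44 and 2.89 TPM in clone 3. Libraries of the genotypes overlapped, although each knockout line averaged below each RAC1-positive line. The difference was -0.76 (SE 0.23, n = 3 lines each) on the log2(TPM + 1) scale. Without sgNTC clone 2 replicate 1, the library that stood apart, it was -0.46, and it was -1.11 in batch 1 and -0.42 in batch 2.

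**Figure D2:**
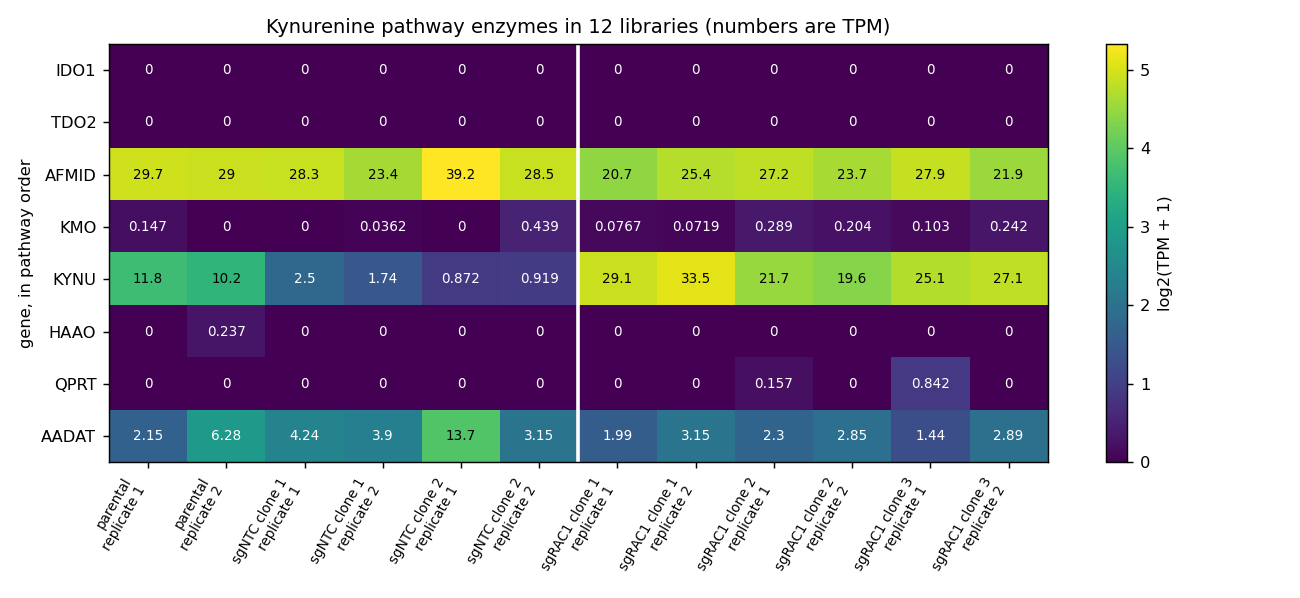
The 8 enzymes in pathway order (vertical axis) in the 12 libraries (horizontal axis), coloured by log2(TPM + 1) with the TPM printed in each cell; a white line parts RAC1-positive from knockout libraries. AFMID, KYNU and AADAT are above 0 in all 12 libraries, IDO1 and TDO2 in none.

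The make-up of the enzyme transcripts therefore differed between lines. Of the summed TPM of the 8 enzymes, KYNU made up 26.9% and 22.4% in the parental line, 7.14% and 5.97% in sgNTC clone 1, 1.62% and 2.79% in sgNTC clone 2, and 42.0% to 56.1% in the knockout libraries. AFMID made up most of the remainder in every library. Enzymes on either side of KYNU, KMO and HAAO, stayed at or near 0 in all lines.

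**Figure D3:**
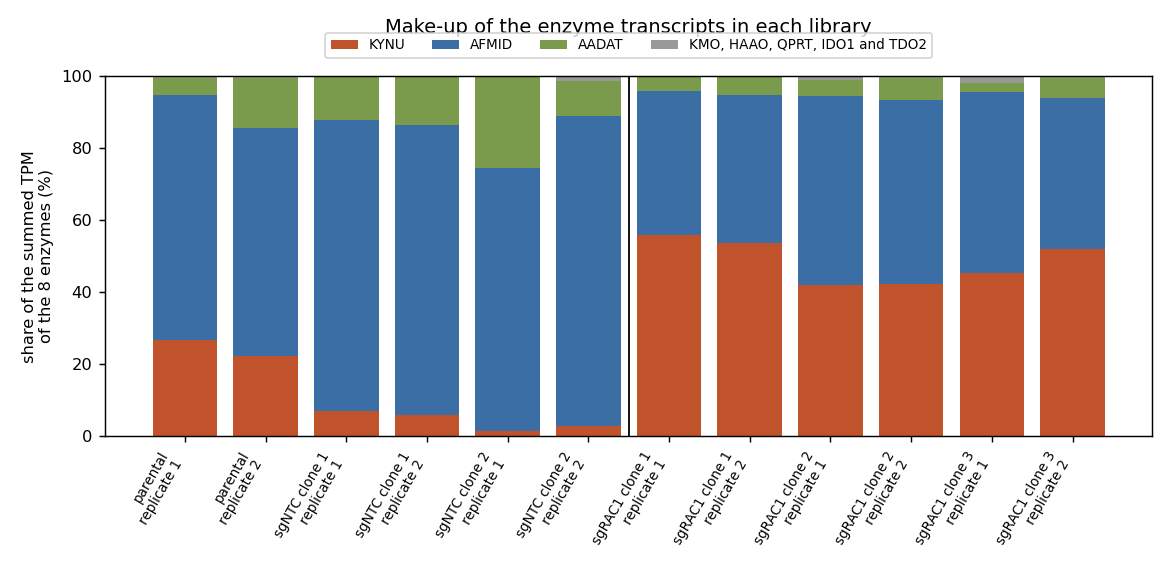
Share (%) of the summed TPM of the 8 enzymes held by KYNU, AFMID, AADAT and the other 5 in each library; the vertical line parts RAC1-positive from knockout libraries. KYNU holds 1.62% to 26.9% on the left and 42.0% to 56.1% on the right.

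Of the 8 enzymes 3 were among these 17367 genes. With limma on the means of the 3 lines per genotype, 0 of these 3 passed an adjusted p of 0.05, beside 0.00576% of all genes tested (1 gene, with 2256 at an unadjusted p under 0.05). That 1 gene was RAC1, the edited gene itself, lower in the knockout lines (limma adjusted p = 0.0467). All 3 knockout lines lay above all 3 RAC1-positive lines for 12% of genes and below them for 8.52%; KYNU was among the former, and AFMID and AADAT among the latter. In the authors' deposited table, where 9.74% of 15140 genes had an adjusted p under 0.05, 1 of the 3 was called, KYNU, with a log2 fold change of 2.47 (SE 0.66). For AFMID the authors' deposited table gives a log2 fold change of -0.24 and for AADAT -0.84. All of these come from the contrast that selected the enzymes, and nothing is read from them.

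Batch was not used in the selection and could be tested. Between batch 2 and batch 1, KYNU differed by -0.06 on the log2(TPM + 1) scale (95% interval -0.33 to 0.22, limma adjusted p = 0.902), AFMID by -0.16 (-0.43 to 0.11, limma adjusted p = 0.750) and AADAT by 0.11 (-0.74 to 0.96, limma adjusted p = 0.942). None of the 3 passed, beside 0.0115% of all genes. The interval of AADAT is wide, and its difference was 0.50 without sgNTC clone 2 replicate 1 (limma adjusted p = 0.634). The replicate-to-replicate fold of KYNU within a line was 1.05 to 1.44.

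Differences among lines of 1 genotype were tested where the selection had not used them. Among the knockout clones none of KYNU, AFMID and AADAT passed limma's F test (adjusted p = 1 for each, none with an unadjusted p under 0.05), beside 0.0576% of genes. Among the RAC1-positive lines AFMID (limma adjusted p = 0.824) and AADAT (limma adjusted p = 0.846) did not pass, beside 0.0115% of genes. With 2 libraries a line, these p-values measure the spread between replicates, and a missed threshold does not show that the lines were alike.

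Genes around the pathway were followed in 6 lists of 74 genes in all, of which 45 reached 1 TPM. The lists were written with results of these data known. Their shares beside all genes are therefore descriptions, and no statement on the lists rests on them. GBP2 reached 1 TPM through the knockout lines only (mean 5.25 TPM, against 0.842 TPM in RAC1-positive lines). None of the 45 passed limma's test between genotypes, batches, RAC1-positive lines or knockout clones at an adjusted p of 0.05. All knockout lines were above all RAC1-positive lines for 12 of the 45 and below them for 4, together 35.6% against 20.5% of all genes tested. At an adjusted p under 0.05 in the authors' deposited table, 9 of 48 listed genes were higher and 1 lower, which is 20.8% against the 9.74% of all genes. The median difference of all genes was 0.02 on the log2(TPM + 1) scale. When all 12 libraries entered the limma fit with the line as a random block, 4 of the 45 passed (8.89%, beside 2.12% of all genes): GBP2 (adjusted p = 0.00504), NAMPT (adjusted p = 0.0110), PARP14 (adjusted p = 0.0110) and PARP9 (adjusted p = 0.0260). That fit takes the same correlation within lines for every gene. For genes that vary more between lines, its p-values partly count the 2 libraries of a line as replicates. On line means these 4 had limma adjusted p-values of 0.143 to 0.210. NAMPT also passed the test on line means without sgNTC clone 2 replicate 1 (limma adjusted p = 0.0490). Of the settings with a library or line left out, that one called the most genes, 21 of 17367. Over 28 settings the limma adjusted p of NAMPT ran from 0.0110 to 0.640.

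**Figure D4:**
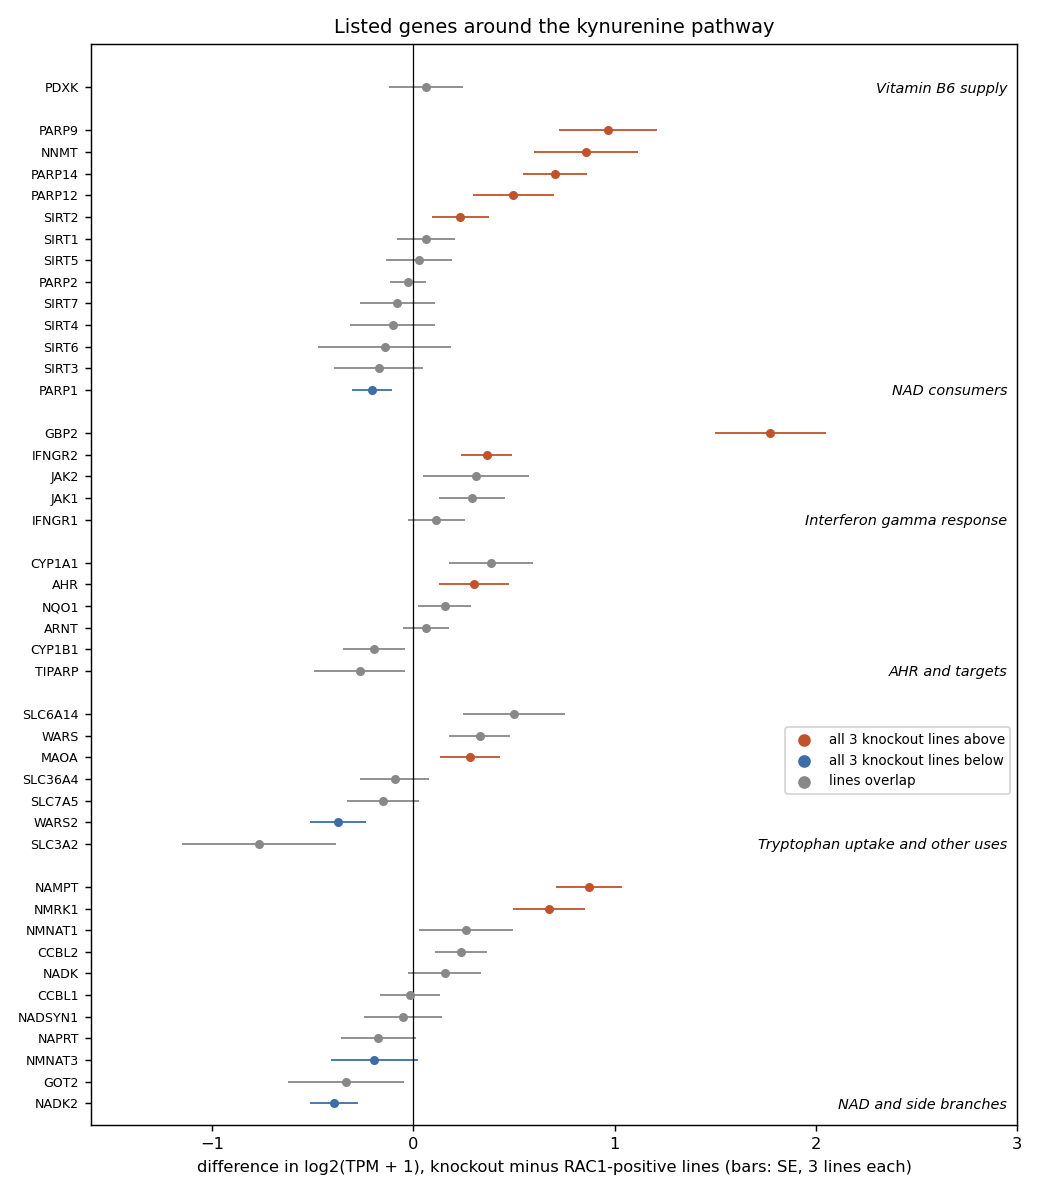
Difference in log2(TPM + 1) between knockout and RAC1-positive lines (horizontal axis, bars are the SE, 3 lines each) for 43 of the 45 listed genes, by list; colour shows whether the lines of the genotypes are apart. GBP2 at 1.77 has the largest positive difference and SLC3A2 at -0.77 the largest negative one among these genes, and none passed the limma test.

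The list of NAD genes and side branches (11 of 16 above the level) had a median difference of -0.02, with the lines apart upwards for 2 of the 11 and downwards for 2, beside 12% and 8.52% of all genes. NAMPT, the rate-limiting enzyme of NAD salvage from nicotinamide, was at 96.8 to 204 TPM in the RAC1-positive and at 211 to 271 TPM in the knockout libraries, with no overlap. Its difference was 0.87 (SE 0.16, limma adjusted p = 0.150), and the authors' deposited table gives 0.87 (adjusted p = 3.98e-11). NMRK1, which phosphorylates nicotinamide riboside, was at 10.6 to 19.8 TPM against 16.7 to 34.1 TPM, a difference of 0.67 (SE 0.18, limma adjusted p = 0.223) with overlapping libraries, and was higher in the authors' deposited table (0.70, adjusted p = 0.00443). NADK2, the mitochondrial NAD kinase, named after its values were seen, is the 1 listed gene lower in the authors' deposited table, at -0.40 (adjusted p = 0.0437).

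The other enzymes able to transaminate kynurenine had higher mean TPM than AADAT (5.58 TPM in RAC1-positive and 2.44 TPM in knockout lines), on a scale corrected for length. CCBL2 (now KYAT3) had a mean of 35.3 TPM in RAC1-positive and 41.6 TPM in knockout lines, and CCBL1 (now KYAT1) had 7.74 and 7.67 TPM. GOT2, the mitochondrial aspartate aminotransferase that also acts on kynurenine, had 83.4 and 60.7 TPM. These 3 were singled out after their values were seen, and for each the lines of the genotypes overlapped.

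Tryptophan uptake and its other uses (7 of 14 above the level) had a median difference of -0.09. WARS2, the mitochondrial tryptophanyl-tRNA synthetase, had a mean of 25.6 TPM in RAC1-positive and 19.2 TPM in knockout lines (difference -0.37, SE 0.14, limma adjusted p = 0.329). WARS, the cytosolic enzyme and an interferon-responsive gene, had 104 and 130 TPM (difference 0.33, SE 0.15, limma adjusted p = 0.411). Both WARS (0.33, adjusted p = 0.0360) and SLC6A14, an amino acid transporter named after its values were seen (0.74, adjusted p = 0.0383), were higher in the authors' deposited table.

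For AHR and its targets (6 of 10 above the level) the median difference was 0.11. CYP1A1, the classical AHR target, had a mean of 3.29 TPM in RAC1-positive and 4.53 TPM in knockout lines (difference 0.39, SE 0.21, limma adjusted p = 0.471). AHR had 4.30 and 5.49 TPM (difference 0.30, SE 0.17, limma adjusted p = 0.504). No gene of this list passed in the authors' deposited table.

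The interferon gamma list (6 of 14 above the level) had a median of 0.30. GBP2, an interferon-induced GTPase, was at 0 to 1.53 TPM in RAC1-positive and at 3.34 to 8.70 TPM in knockout libraries, with no overlap. Its difference was 1.77 (SE 0.28, limma adjusted p = 0.143), and the authors' deposited table gives 2.37 (adjusted p = 8.21e-11). IFNGR2, a receptor chain, had means of 13.0 and 17.0 TPM (difference 0.36, SE 0.13, limma adjusted p = 0.304). IRF1 and CXCL10, both induced by interferon gamma, stayed below a mean of 1 TPM, as did IDO1 at 0. Of the listed genes below that level, only GBP1 had the lines of the genotypes apart. Its means were 0.00974 TPM in RAC1-positive and 0.487 TPM in knockout lines. IRF1, CXCL10 and GBP1 were named after their values were seen. JAK1, also named after its values were seen, is the other gene of this list that was higher in the authors' deposited table, at 0.37 (adjusted p = 0.0269).

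Among NAD-consuming enzymes (13 of 16 above the level, median 0.03) the lines were apart upwards for 5 and downwards for 1 of the 13, beside 12% and 8.52% of all genes. PARP14 was at 2.77 to 3.90 TPM in RAC1-positive and at 5.15 to 6.87 TPM in knockout libraries, and its difference was 0.70 (SE 0.16, limma adjusted p = 0.193). PARP9, its partner in interferon responses, had means of 2.00 and 4.88 TPM (difference 0.97, SE 0.24, limma adjusted p = 0.210). Both were higher in the authors' deposited table (0.87, adjusted p = 1.47e-07, and 1.41, adjusted p = 7.65e-08). So was NNMT, which methylates nicotinamide and was named after its values were seen, at 0.89 (adjusted p = 0.00175).

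KYNU and AADAT need pyridoxal phosphate, the active form of vitamin B6. PDXK, a kinase of its supply route, had a mean of 9.92 TPM in RAC1-positive and 10.5 TPM in knockout lines (difference 0.06, SE 0.19, limma adjusted p = 0.907), and its sign turned in 1 of 28 settings.

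The genes most like KYNU over the 12 libraries were sought among 6190 genes whose line means spanned at least 1 log2 unit. By Pearson's r on log2(TPM + 1), they were ZNF90 (0.957), NIPAL2 (0.955), TEX36 (0.955), TPBG (0.953) and THSD1 (0.953). The 12 points come in pairs from 6 lines and share library and batch, so r describes these libraries only. All 5 were lower in both non-targeting clones than in the parental line, and higher in each knockout clone than in the parental line. As the 5 were picked by this r, the order they share with KYNU comes with the selection. ZNF90 and THSD1 passed the level filter through the knockout lines only, with means of 0.752 and 0.268 TPM in RAC1-positive lines. ZNF90, a zinc finger gene with close relatives to which reads could be misassigned, ran from 0.0520 TPM in sgNTC clone 2 over 2.04 TPM in the parental line to 2.81 TPM in sgRAC1 clone 3. TPBG, an oncofetal surface glycoprotein, ran from 4.78 over 7.61 to 13.1 TPM in sgRAC1 clone 1. KYNU covered a wider range than any of the 5.

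**Figure D5:**
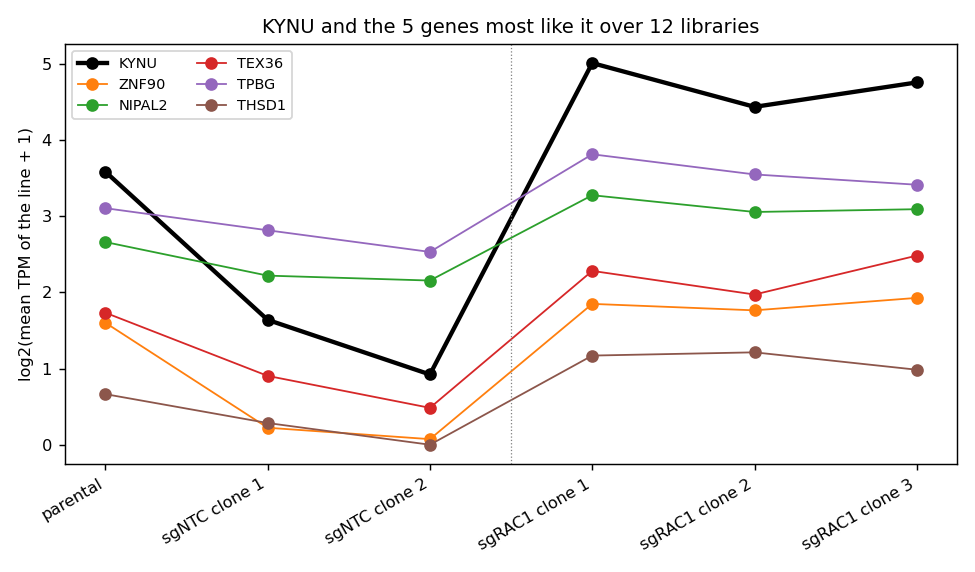
log2 of the mean TPM + 1 of each line (vertical axis) for KYNU and the 5 genes with the highest Pearson correlation to it over 12 libraries; the dotted line parts RAC1-positive from knockout lines, and lines between points only guide the eye. All 6 genes fall from the parental line to sgNTC clone 2 and stand above it in the 3 knockout clones. Selection by the correlation favours this order.

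KYNU is also a gene of macrophages and liver, so markers of both were measured beside it. The summed TPM of 7 macrophage markers was 0 to 1.08 in RAC1-positive and 0.806 to 4.35 in knockout libraries, with PTPRC and AIF1, which mark blood cells and macrophages, at 0 in every library. Of 5 hepatocyte markers the sum was 8.35 to 22.8 TPM against 35.0 to 61.6 TPM, and ALB, the defining liver gene, was at 0 in every library. Only 1 gene of each list reached a mean of 1 TPM: CD14, a surface receptor of monocytes, at 0 to 1.08 TPM against 0.607 to 4.23 TPM, and SERPINA1, a protease inhibitor also made by epithelia, at 8.35 to 22.0 TPM against 34.3 to 61.6 TPM. CD14 reached that level through the knockout lines only (mean 1.79 TPM, against 0.440 TPM in RAC1-positive lines). The part of these genes in the difference of KYNU was not tested.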

How the data were processed

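RNA-seq of 12 DU145 libraries was analysed from 1 deposited table of 56832 genes. The authors deposited TPM values per library; for 15140 genes they added a mean normalized signal, a log2 fold change and its error, a test score, and raw and adjusted p-values, in the columns of DESeq2 per the file headers. Libraries were made from total RNA with SMARTScribe and tagmentation, per the labels' protocols. STAR 2.6.1d, DESeq2 and GRCh38 are named in the submitters' processing notes. The sources used here do not give the counting tool, strand setting, annotation or the model behind the deposited comparison.

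The enzymes and gene lists were chosen with earlier results of these data known. Line means of log2(TPM + 1) were compared between genotypes with limma 3.58.1 in R 4.3.3 (3 lines each), with Benjamini-Hochberg adjustment at 0.05 over the 17367 genes that averaged 1 TPM or more in 1 of the genotypes. Batches and lines of 1 genotype were compared in limma over libraries. The fits were tested on simulated data that held library noise but no variation between lines. Those runs therefore do not show how the test between genotypes behaves when lines of 1 genotype differ. Replicates are biological per the labels. Their numbers mark the batch. Deviations of same-numbered libraries from the mean of their line correlated at -0.13 to 0.30 over 15 pairs of lines (median 0.026, 2 over 0.1). These correlations give little sign of a shift shared by a batch. None of 66 library pairs was identical. Named genes were the 8 enzymes, RAC1, per list those past the threshold or else the 2 with the smallest p, and the 5 most correlated with KYNU. Alternatives covered pseudocount, scaling, level filter, unit of replication, replicate block, each batch and each library or line left out. Positions came from GENCODE 29. Promoter windows came from RefSeq (GRCh38.p14), where 7 of the 8 enzymes matched in 10 windows. Some named items are not reported here.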

Additional observations from a re-analysis of the deposited data

Results flagged for a closer look

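In 4 of 16 groups of 6 libraries examined, 1 library of an enzyme lay so far from its group that its gap to the nearest other value exceeded 0.625 of the whole range. Chance gives this in about 1 of 20 groups of normally distributed values, a rate that does not carry over to these: 6 of the 16 groups were all at 0, and several others held mostly values at or near 0. AADAT was at 13.7 TPM in sgNTC clone 2 replicate 1, the library with the fewest genes above 0 (gap of 0.643 of the range). KMO was at 0.439 TPM in sgNTC clone 2 replicate 2 (0.664 of the range). HAAO was at 0.237 TPM in parental replicate 2, with the other 5 RAC1-positive libraries at 0. QPRT was at 0.842 TPM in sgRAC1 clone 3 replicate 1 (0.813 of the range). The last 3 are values below 1 TPM of enzymes at or near 0 elsewhere.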

How the results depend on the processing

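The difference between genotypes kept its sign in all 25 alternatives run for each of KYNU (1.81 to 3.46), AFMID (-0.35 to -0.17) and AADAT (-1.11 to -0.42). Between genotypes 1 gene was called; the count was 0 with a pseudocount of 0.1, median-of-ratios scaling, upper quartile scaling or no filter, 2 with a pseudocount of 5, 3 with a filter of 5 TPM, 0 to 21 with a library or line left out (the highest without sgNTC clone 2 replicate 1), 0 in batch 1 alone and 33 in batch 2 alone (chosen after seeing the data), 369 with 12 libraries and the line as a random block, and 320 with the replicate block added. Between batches 2 genes were called, against 0 with either scaling, with the line not in the model or with any library left out, and 22 with a filter of 5 TPM. Among RAC1-positive lines 2 genes were called, against 12 with a pseudocount of 0.1, 14 with no filter, 0 with a pseudocount of 5 or the replicate block, and 0 to 1394 with a library left out, the highest without sgNTC clone 2 replicate 2. Among knockout clones 10 genes were called, against 1 with a pseudocount of 0.1 or a filter of 5 TPM, 29 with a pseudocount of 5, 72 with no filter, 2 with the replicate block, and 0 to 26 with a library left out. The cause of these shifts was not tested. The depth of each library is unknown, and no limit was set on the values listed at 0.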
